A study of Mus musculus with 2 samples.

Results

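The small integrin-binding ligand N-linked glycoproteins (SIBLINGs) were followed through a pair of spatially resolved mouse femur sections with a healing osteotomy. The genes were taken by symbol and comprised *Spp1* (osteopontin), *Ibsp* (bone sialoprotein), *Dmp1* (dentin matrix acidic phosphoprotein) and *Mepe* (matrix extracellular phosphoglycoprotein), 4 of the 19465 genes in the files. Each was present once in the feature list of both sections, and the values were counts of unique molecular identifiers (UMIs), where 1 UMI stands for 1 captured probe molecule.

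SIBLING proteins are secreted acidic phosphoproteins that bind calcium and hydroxyapatite and carry an integrin-binding motif. *Ibsp* is made by osteoblasts and is known to promote the first mineral deposits, whereas *Dmp1* and *Mepe* are best known from osteocytes, the cells that osteoblasts become once embedded in matrix. *Spp1* restrains crystal growth, anchors osteoclasts to the mineral surface and is also made by osteoclasts and macrophages, so it marks more than 1 kind of cell.

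The study asked how cyclic mechanical loading alters gene expression at a healing fracture site. Female bone cell reporter (BCR) mice, in which *Ibsp* and the osteoclast gene *Acp5* had been labelled with the fluorescent proteins eGFP and mCherry, received a femoral osteotomy held by an external fixator at 12 weeks of age, and femora were collected 5 weeks later, at 17 weeks. The Loaded mouse underwent loading 3 times per week from week 3, and the Control mouse received sham loading. Both groups carried the reporter alleles, and 1 section of 1 mouse stood for each group, so that animal, section and loading cannot be told apart and no p-value is given. Whether the labelled *Ibsp* allele alters the *Ibsp* counts was not tested.

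The 4 genes lie close together on chromosome 5 of the GRCm38 (mm10) assembly, all on the plus strand, within 238 kb. In GENCODE M21 they run in the order *Dmp1* (chr5:104202613-104214102), *Ibsp* (chr5:104299171-104311469), *Mepe* (chr5:104325329-104338611) and *Spp1* (chr5:104435118-104441050). The fifth member, *Dspp* (dentin sialophosphoprotein, chr5:104170712-104180127), had 0 UMIs in both bone regions, which allows up to 3 UMIs in each.

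The 250 bases before the RefSeq start of each gene on the same assembly and strand are given here, 5′ to 3′, because neighbouring genes of 1 cluster gave unlike patterns in the sections. Capitals mark the core motif of Runx factors, TGTGGT on either strand (read as ACCACA on the other). *Spp1* and *Dmp1* have a pair of starts in the RefSeq table each, and the start nearest to the GENCODE start was taken. The windows are chr5:104434861-104435110 (*Spp1*), chr5:104299037-104299286 (*Ibsp*), chr5:104202367-104202616 (*Dmp1*) and chr5:104325079-104325328 (*Mepe*). The RefSeq start of *Ibsp* lies 116 bases after the GENCODE start, so the end of its window is transcribed in that annotation.
Spp1: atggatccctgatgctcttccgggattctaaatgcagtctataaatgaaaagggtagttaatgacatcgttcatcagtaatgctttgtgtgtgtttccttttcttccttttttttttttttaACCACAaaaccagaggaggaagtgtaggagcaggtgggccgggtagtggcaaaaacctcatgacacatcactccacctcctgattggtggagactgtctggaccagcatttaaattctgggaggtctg
Ibsp: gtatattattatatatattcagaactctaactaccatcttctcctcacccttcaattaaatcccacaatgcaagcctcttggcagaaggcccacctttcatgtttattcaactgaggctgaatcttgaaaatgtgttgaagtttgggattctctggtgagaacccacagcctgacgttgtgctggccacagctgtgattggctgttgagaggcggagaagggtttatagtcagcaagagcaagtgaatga
Dmp1: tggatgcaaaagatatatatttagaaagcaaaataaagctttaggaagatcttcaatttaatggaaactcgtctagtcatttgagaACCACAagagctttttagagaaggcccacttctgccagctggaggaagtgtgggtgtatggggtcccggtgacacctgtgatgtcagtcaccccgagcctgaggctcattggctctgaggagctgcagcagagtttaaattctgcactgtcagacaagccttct
Mepe: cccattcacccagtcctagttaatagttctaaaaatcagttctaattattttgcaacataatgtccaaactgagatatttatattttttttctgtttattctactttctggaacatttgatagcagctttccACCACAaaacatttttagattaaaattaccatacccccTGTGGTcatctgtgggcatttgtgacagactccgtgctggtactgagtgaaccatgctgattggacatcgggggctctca

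The Runx core motif occurred once upstream of *Spp1* and of *Dmp1*, in 2 copies upstream of *Mepe* and not upstream of *Ibsp*, and 14.0% of all 32851 RefSeq windows of this length held it. A TATA box (TATAAA on either strand, 12.4% of windows) was read on the minus strand at -28 from the *Ibsp* start, and matches at -211 from the *Spp1* start and -173 from the *Mepe* start lay farther away, with none in the *Dmp1* window. These matches describe letters only, and binding was not measured.

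Spots were 100 µm apart, and the bone region was the study's own list of bone spots, 131 in Control and 146 in Loaded, all found in the files. The study took this list between the inner pins of the fixator. Other spots can therefore hold bone of the shaft beyond the listed region. The whole sections held 9002147 UMIs in 1962 spots and 4910716 UMIs in 1436 spots, and the bone regions 557259 and 409020 UMIs, with medians of 3478 and 2621 UMIs per spot. Genes of the skeletal muscle list took 15.7% of the UMIs of the Control bone region and 8.27% of those of the Loaded bone region, with all 22 genes detected in both. The osteoblast list (7 genes measured) took 2.24% and 6.86%, the osteocyte list 0.0284% and 0.0597%, the osteoclast list 0.387% and 0.487%, the macrophage list 0.0944% and 0.104%, the chondrocyte list 0.130% and 0.0670%, the granulocyte list 0.0854% and 0.356%, and the erythroid list 2.46% and 3.03%. In a spot, fewer cells of a kind and less RNA per cell cannot be told apart.

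Each of the 4 SIBLING genes stood higher in the bone region of the Loaded section than in that of the Control section, but by very different amounts. The difference was smallest for *Ibsp*, intermediate for *Spp1* and largest for the genes best known from osteocytes, *Dmp1* and *Mepe*. Levels are UMIs divided by the sum of the scran size factors of the spots, and intervals are 95% intervals for counting error only, since there is 1 section per group.

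*Spp1* had 520 UMIs (Poisson interval 476 to 567) in the Control and 1174 UMIs (1108 to 1243) in the Loaded bone region, that is 3.37 and 9.56 normalized counts per spot, a log2 ratio of 1.50 (1.35 to 1.65). A Control bone spot held a median of 1 *Spp1* UMI (quartiles 1 and 4, maximum 42) and a Loaded one a median of 4 (quartiles 1 and 8, maximum 89). The single-spot ranges overlapped widely, although 32 Loaded but 12 Control spots reached 10 UMIs. The log2 ratio was 2.59 without the upper right block of the Control region, 2.56 in the middle part of the length alone and 0.88 among spots with under 5% muscle UMIs (16 Control, 27 Loaded).

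*Ibsp*, whose product nucleates mineral, had 285 UMIs (253 to 320.1) in Control and 321 UMIs (287 to 358) in Loaded, or 1.85 and 2.61 normalized counts per spot, a log2 ratio of 0.50 (0.26 to 0.73). The highest single value was in Control, where 1 spot held 75 of the UMIs, against a maximum of 29 in Loaded, and with the top spot of each region left out the log2 ratio was 0.83. Without the upper right block of the Control region (1 of 4 blocks by side and length, described with the map of UMIs) it was 2.49, and without the upper right block of the Loaded region it was -0.07. Among spots with under 10% muscle UMIs (57 Control, 83 Loaded) it was 0.11, and under 5% (16 and 27 spots) it was -0.69, so that the direction of the *Ibsp* difference depended on which spots were counted.

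*Dmp1*, a phosphoprotein that lines osteocyte lacunae, had 28 UMIs (18.6 to 40.5) in Control and 171 UMIs (146 to 199) in Loaded, a log2 ratio of 2.94 (2.36 to 3.57). It was found in 26 Control spots, 25 of them with a single UMI, and in 79 Loaded spots, of which 21 held 3 or more. Leaving out each block in turn kept the log2 ratio between 2.58 and 3.65, and among spots with under 10% muscle UMIs it was 4.47.

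*Mepe*, which gives rise to the mineral-inhibiting ASARM peptide, had 3 UMIs (0.619 to 8.77) in 2 Control spots and 46 UMIs (33.7 to 61.4) in 37 Loaded spots, a log2 ratio of 4.27 (2.63 to 6.60). With 3 UMIs in Control the size of this ratio is known only within that interval. In the middle part of the regions alone (the central of 3 equal parts of the length), where all 3 Control UMIs lay, it was 2.62.

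*Spp1*, *Dmp1* and *Mepe* were thus at least 2-fold higher in Loaded, 3 of 4 members against 10.6% of the 10003 genes with at least 10 UMIs, whose median log2 ratio was 0.02. Of those genes, 395 had a higher ratio than *Spp1*, 2641 a higher ratio than *Ibsp*, 33 a higher ratio than *Dmp1* and 6 a higher ratio than *Mepe*. For this ranking a 0 was set to 3 counts, and *Mepe* itself had 3 UMIs in Control. Genes without a Control UMI can therefore rank below *Dmp1* and *Mepe* through this setting. The osteoblast list (6 of 7 genes at least 2-fold higher) and the granulocyte list (6 of 7) were higher in Loaded as well. Of 5 measured osteocyte genes 3 were at least 2-fold higher and 1 was lower, *Pdpn* with 19 UMIs in Loaded and 48 in Control. Of 22 muscle genes 13 were at least 2-fold lower, against 9.81% of all genes. The part of these lists in the SIBLING ratios was not tested.

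**Figure D1:**
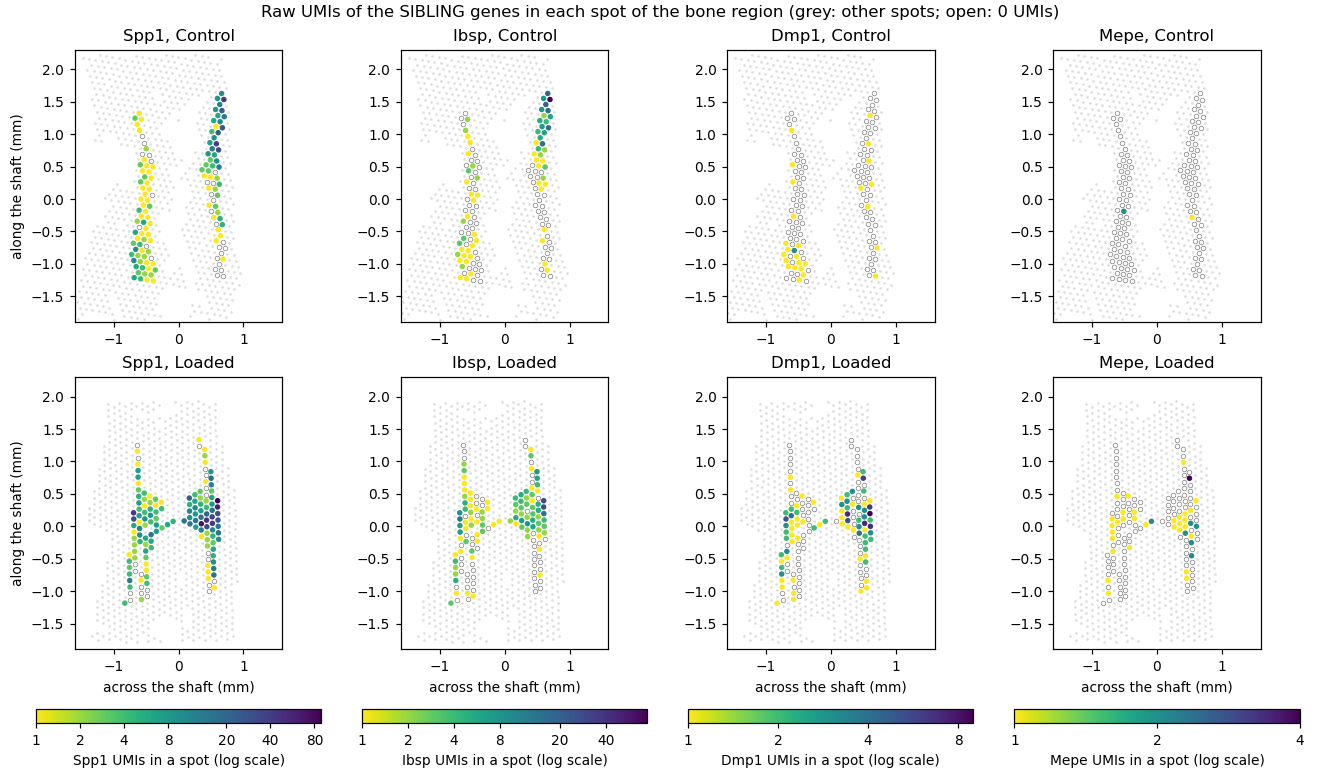
Raw UMIs of *Spp1*, *Ibsp*, *Dmp1* and *Mepe* in each spot of the bone region (coloured, log scale, separate for each gene), with bone spots at 0 UMIs open and other spots grey, in millimetres along and across the shaft. In Control the high *Spp1* and *Ibsp* spots lie at the upper end of the right side, whereas *Dmp1* spots there hold at most 1 UMI, and in Loaded all 4 genes are spread over both sides.

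The map of UMIs shows that each region consisted of the 2 cortical sides of the shaft, called left and right as they lie in the images. In Loaded the listed spots also reached inward near the middle of the length. Neither end is named in the labels, and the ends are called upper and lower. Each side was cut at the middle of the length of the whole region, giving 4 blocks of 21 to 48 spots. For finer positions the length was cut into 3 equal parts, upper, middle and lower. Blocks are parts of 1 section and not replicates, but their range shows how even a gene was.

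For *Dmp1* the blocks held 0.285, 0.0784, 0.310 and 0.106 normalized counts per spot in Control (upper left, upper right, lower left, lower right) and 0.973, 1.75, 1.06 and 1.64 in Loaded. For *Mepe* they held 0, 0, 0.0365 and 0.0265 in Control and 0.381, 0.275, 0.272 and 0.649 in Loaded. Every Loaded block lay above every Control block for these 2 genes, which was so for 3.60% of the 10003 genes.

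*Spp1* and *Ibsp* overlapped between the sections. The *Spp1* blocks held 2.38, 6.98, 2.04 and 0.715 normalized counts per spot in Control and 7.45, 13.4, 4.87 and 11.5 in Loaded, so that only the lower left Loaded block fell below a Control block. The *Ibsp* blocks held 1.43, 4.64, 0.511 and 0.132 in Control and 2.28, 4.38, 1.73 and 1.34 in Loaded. The highest of all 8 was the Control upper right block, where 1 spot held 75 of 237 *Ibsp* UMIs. In the Loaded upper right block 1 spot held 29 of 175. The order of these 2 blocks without their top spots was not tested.

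**Figure D2:**
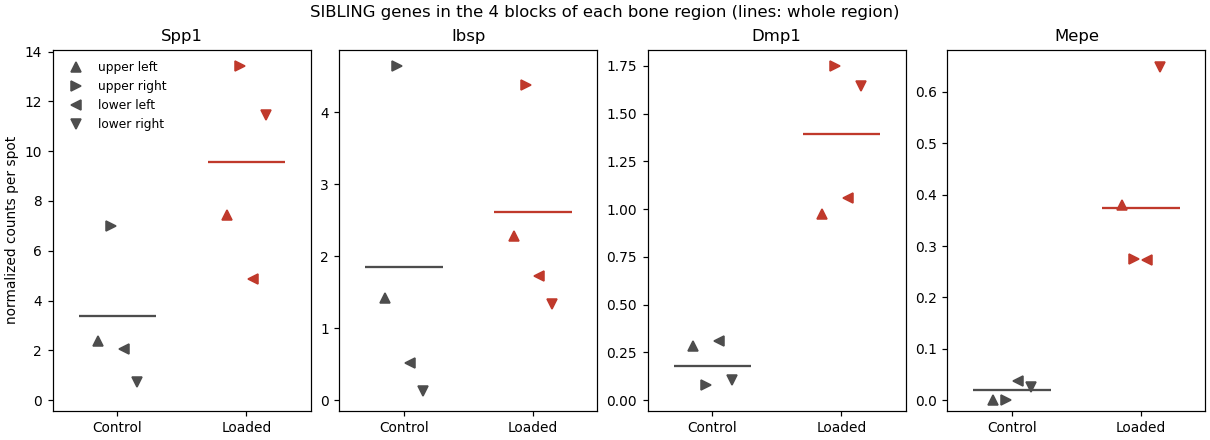
Normalized counts per spot of each SIBLING gene in the 4 blocks of the Control and Loaded bone regions (symbols), with horizontal lines for the whole region and a separate axis for each gene. *Dmp1* and *Mepe* blocks do not overlap between the sections, whereas the Control upper right block reaches 6.98 for *Spp1* and 4.64 for *Ibsp*.

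Within the Control section, *Ibsp* and *Spp1* were concentrated in 1 corner. The upper right block, 35 of the 131 spots, held 237 of 285 *Ibsp* UMIs and 356 of 520 *Spp1* UMIs, but 4 of 28 *Dmp1* UMIs and 0 of 3 *Mepe* UMIs. In the upper part of the right side all 21 spots had *Ibsp* and *Spp1* UMIs, at 23.2 *Ibsp* UMIs per 10000 UMIs (20.3 to 26.5) and 31.7 *Spp1* UMIs per 10000 (28.3 to 35.4). In the lower part of the same side *Ibsp* was at 0.563 per 10000 (0.153 to 1.44) and *Spp1* at 1.97 (1.08 to 3.31).

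Other genes were high in the same Control corner. *Col1a1*, the main bone collagen, stood at 179 UMIs per 10000 in the upper right block against 16.4 to 60.9 in the other 3, *Ctsk*, the collagen-degrading protease of osteoclasts, at 39.7 against 7.11 to 15.2, and *Acp5* at 27.6 against 1.24 to 6.71. The osteoblast list took 4.93% of UMIs there against 0.639% to 2.45%, the osteoclast list 0.856% against 0.113% to 0.302%, the chondrocyte list 0.350% against 0.0183% to 0.0775%, the osteocyte list 0.0430% against 0.0162% to 0.0336%, and the muscle list 5.26% against 8.32% to 27.3%. The osteocyte list as a sum, which does not hold *Dmp1* or *Mepe*, was thus highest in the block where *Dmp1* had its lowest normalized level and *Mepe* no UMI. The single genes of this sum are not reported here by block, and *Phex* added little to it in Control. It therefore does not show that osteocyte markers in general were highest there. *Bglap* (osteocalcin) was at 2.33 per 10000 there, within the 1.32 to 4.91 of the other Control blocks and below the 17.7 to 30.4 of the Loaded blocks. The part of these lists in the SIBLING levels was not tested.

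By side, the Control right side had 383 *Spp1* and 242 *Ibsp* UMIs against 137 and 43 on the left, log2 ratios per normalized spot of 1.04 (0.76 to 1.33) and 2.05 (1.58 to 2.55). *Dmp1* went the other way, with 8 UMIs on the right and 20 on the left (-1.76, -3.16 to -0.52), 16 of them in the lower part of the left side, where the surrounding block also held the most muscle UMIs (27.3%). *Mepe*, with 1 and 2 UMIs, allowed no ratio and fell short of the 10 UMIs required of the genes counted as background. In all, 2 of 4 members were at least 2-fold higher on the right, against 19.1% of genes (1539 of 8046, or 2526 with library totals as the scale), and without the upper part the right side was lower for both, at -0.75 for *Spp1* and -1.21 for *Ibsp*. Among spots with under 10% muscle UMIs the *Ibsp* ratio was 0.83.

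Along the Control shaft, the middle part was lower than the end parts for *Spp1* (91 against 429 UMIs, log2 ratio -1.12, -1.46 to -0.79) and *Ibsp* (23 against 262 UMIs, -2.39, -3.07 to -1.77). These 2 of 4 members were at least 2-fold lower in the middle, against 9.59% of genes, but *Spp1* was at -0.34 when the middle part was taken longer. *Mepe* again had too few UMIs for the genes counted as background. Over both sides only the upper part stood above the middle. The upper, middle and lower parts held 9.05, 1.875 and 1.56 normalized counts per spot of *Spp1* and 6.64, 0.474 and 0.398 of *Ibsp*. The difference came from the right side, and on the left side alone the log2 ratios were 0.37 for *Spp1* and 0.71 for *Ibsp*. *Dmp1* had 7 UMIs in the middle and 21 in the ends (-0.46, -1.94 to 0.82), which was not distinguishable at this depth.

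In the Loaded section the members were spread over both sides. The right side had 837 *Spp1* UMIs against 337 on the left (log2 ratio 1.09, 0.91 to 1.28), 210 against 111 for *Ibsp* (0.70, 0.36 to 1.04), 113 against 58 for *Dmp1* (0.74, 0.27 to 1.22) and 28 against 18 for *Mepe* (0.41, -0.49 to 1.35). *Spp1* alone was at least 2-fold higher on the right, 1 of 4 members against 7.50% of genes, and this was lost among spots with under 10% muscle UMIs (0.73), without the middle (0.87) or the lower part (0.97) and along the principal component (0.91). Unlike in Control, *Dmp1* and *Ibsp* leaned to the same side.

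*Spp1* in Loaded was highest in the middle part, at 33.7 UMIs per 10000 (31.7 to 35.9) against 20.8 (16.3 to 26.1) in the upper and 14.0 (11.5 to 16.8) in the lower part. It was found in 82 of the 83 spots of the middle part and in 43 of the 63 spots of the end parts. These spots were not thinned, and those of the middle part were deeper (292488 UMIs in all, against 116532 in the end parts). Per normalized spot the middle exceeded the ends by a log2 ratio of 0.97 (0.75 to 1.21) for *Spp1* and 0.58 (0.18 to 1.00) for *Ibsp*, while *Dmp1* (0.15, -0.36 to 0.68) and *Mepe* (0.08, -0.91 to 1.16) showed no difference beyond counting error. No member was at least 2-fold higher in the middle, 0 of 4 against 10.9% of genes. These values depend on how the shaft is laid: with the first principal component of the spot positions as the axis, which is tilted by 29.1 degrees from the direction of the sides, they were 0.19 for *Spp1* and -0.98 for *Ibsp*, so the direction of the *Ibsp* difference along the shaft rests on the axis.

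On the axis used here, the genes differed in the lower part of the Loaded right side. It held 2 *Ibsp* UMIs in 14 spots, 0.785 per 10000 (0.0951 to 2.84), against 10.8 (9.29 to 12.5) in the middle part of that side, while *Dmp1* had overlapping intervals of 3.53 (1.62 to 6.71) and 5.41 (4.35 to 6.65). *Mepe* stood at 1.57 (0.428 to 4.02) and 1.14 (0.687 to 1.78), and *Spp1* at 21.6 (16.3 to 28.1) and 44.0 (40.9 to 47.3). *Sost*, which encodes the osteocyte product sclerostin, had 68 of its 74 Loaded bone UMIs in the lower blocks, 40 on the left and 28 on the right. These blocks reach up to the middle of the length. On the left *Ibsp* had overlapping intervals, 4.51 (2.92 to 6.65) in the lower and 6.11 (4.82 to 7.64) in the middle part. Of the osteocyte list 2 genes could be set upper against lower part, and only 1 was at least 2-fold lower in the upper part.

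**Figure D3:**
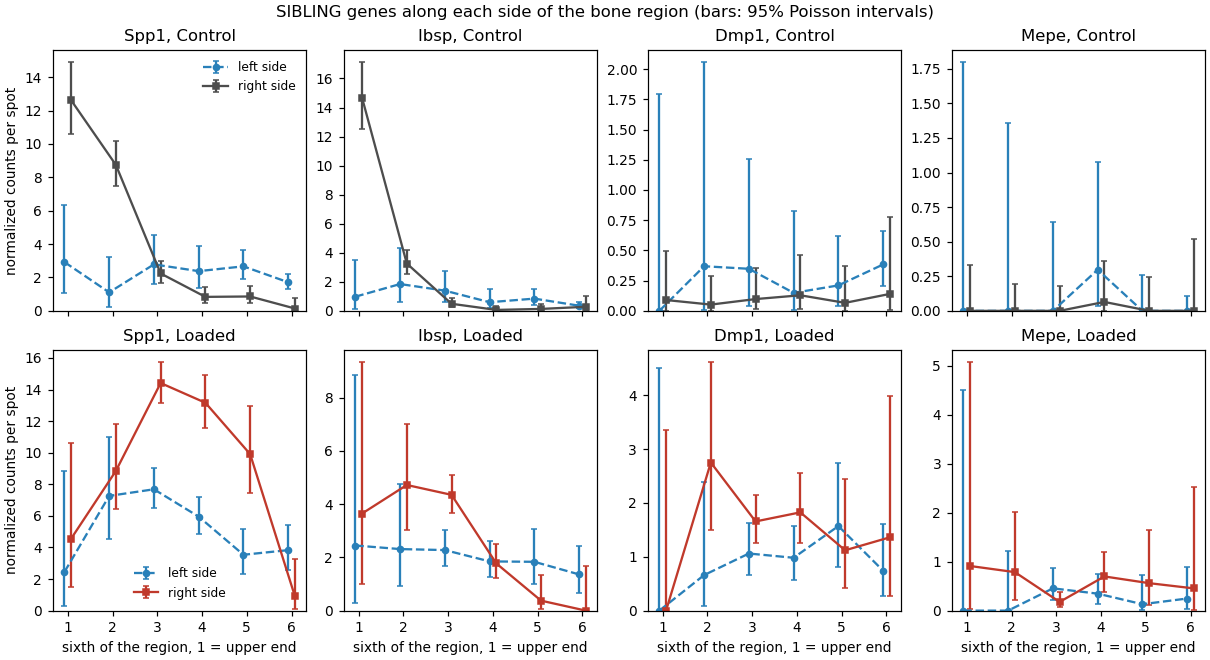
Normalized counts per spot of each SIBLING gene in 6 equal segments of the bone region from the upper (1) to the lower (6) end, for the left (blue, dashed) and right (solid) sides, with 95% Poisson intervals. In Control segment 1 of the right side reaches 14.7 for *Ibsp* and 12.6 for *Spp1*, and in Loaded *Spp1* is highest in segment 3 of the right side, at 14.4.

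The difference between inner and edge bone spots also varied between genes. Inner spots, with 5 or 6 bone neighbours on the grid, were compared with edge spots, with 4 or fewer. In Control the edge held more *Ibsp* (inner over edge log2 ratio -1.28, -1.81 to -0.78) and more *Spp1* (-0.53, -0.85 to -0.22), while *Dmp1*, with 12 inner and 16 edge UMIs, had 1.01 (-0.20 to 2.18) and was not distinguishable. In Loaded the inner spots held more *Spp1* (0.62, 0.45 to 0.79) and, just beyond counting error, more *Dmp1* (0.47, 0.01 to 0.93), with *Ibsp* (-0.12, -0.48 to 0.23) and *Mepe* (0.60, -0.33 to 1.50) not distinguishable. Of 8046 genes in Control, 7434 had a higher ratio than *Ibsp* and 5931 than *Spp1*. Of 7329 genes in Loaded, 1011 had a higher ratio than *Spp1* and 1531 than *Dmp1*. The upper part of the Control right side held 227 of 285 *Ibsp* UMIs, and the spot with 75 was an edge spot. In Loaded the listed spots reached inward near the middle, where *Spp1* was highest. Edge and position along the shaft thus cannot be told apart.

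Against the rest of its own section, the Loaded bone region was richer in all 4 members. *Spp1* stood at 28.7 UMIs per 10000 in the bone region and 4.97 in the other spots (log2 ratio 2.53, 2.43 to 2.63), *Ibsp* at 7.85 and 1.15 (2.77, 2.57 to 2.98), *Dmp1* at 4.18 and 0.364 (3.52, 3.20 to 3.84), and *Mepe* at 1.12 and 0.0756 (3.90, 3.22 to 4.58). All 4 were at least 2-fold higher, against 16.6% of 13849 genes, and only 3 genes had a higher ratio than *Dmp1* and 2 a higher ratio than *Mepe*.

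In Control, *Spp1* (9.33 and 2.27 per 10000, log2 ratio 2.04, 1.90 to 2.18) and *Ibsp* (5.11 and 0.960, 2.41, 2.21 to 2.61) were higher in the bone region, 2 of 4 members against 28.0% of 14683 genes (4115 genes, or 1878 with scran size factors over all spots). *Dmp1* was at the same level inside and outside the listed region (0.502 and 0.506 per 10000, -0.01, -0.62 to 0.54), where the other spots can hold unlisted bone. *Mepe*, with 3 UMIs in the bone region, was not distinguishable (0.0538 and 0.0427, 0.33, -2.01 to 2.0). The *Dmp1* value turned on the choice of other spots, since against those within the span of the region along the shaft the log2 ratio was 2.27. With every spot given equal weight the Control ratios were 0.91 for *Spp1*, 1.44 for *Ibsp* and -1.64 for *Dmp1*.

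Outside the listed bone region the levels were lower within a few steps, a step being 1 spot of the grid. *Ibsp* in Loaded stood at 7.85 UMIs per 10000 in the bone region, 4.28 (3.72 to 4.90) at 1 step, 0.991 (0.740 to 1.30) at 2 steps and 0.631 (0.488 to 0.803) at 3 to 5 steps. *Dmp1* in Loaded stood at 4.18 in the bone region, 1.06 (0.791 to 1.39) at 1 step and 0.324 (0.189 to 0.519) at 2 steps, and *Mepe* at 1.12, 0.163 (0.0704 to 0.321) and 0.0381 (0.00462 to 0.138). *Ibsp* in Control was higher at 2 steps (1.65, 1.32 to 2.04) and at 3 to 5 steps (1.12, 0.946 to 1.32) than in Loaded, although its bone region was lower. These rings also hold spots beyond the ends of the region. Within its span, at over 1 step outside the sides, *Ibsp* was lower in Control (0.302, 0.222 to 0.401) than in Loaded (0.549, 0.407 to 0.724). Between the sides it stood at 1.48 (1.05 to 2.02) in Control and 0.916 (0.638 to 1.27) in Loaded.

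The first ring of spots was not even. At 1 step on the outer face of the sides *Ibsp* stood at 5.85 UMIs per 10000 (5.02 to 6.78) in Loaded and 2.67 (2.17 to 3.26) in Control, and at 1 step inside the cavity at 1.96 (1.37 to 2.73) and 1.63 (0.964 to 2.57). *Spp1* gave 12.9 (11.7 to 14.3) outside and 6.17 (5.07 to 7.43) inside in Loaded, and 7.49 (6.63 to 8.43) and 4.43 (3.27 to 5.85) in Control. *Dmp1* did not show this lean, with 0.836 (0.541 to 1.23) outside and 1.23 (0.773 to 1.87) inside in Loaded. The Control *Ibsp* intervals overlapped, and single spots carried much of the outer values. For *Ibsp* 1 spot held 56 of 175 UMIs in Loaded and 32 of 97 in Control. For *Spp1* 1 spot held 75 of 386 in Loaded and 69 of 272 in Control.

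**Figure D4:**
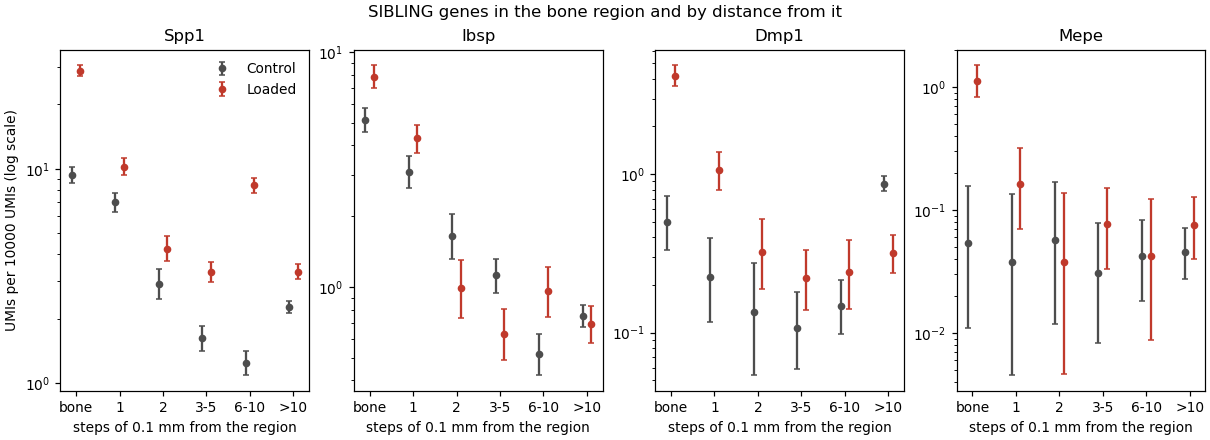
UMIs per 10000 UMIs (log scale) of each SIBLING gene in the bone region and in other spots by distance in steps of 100 µm, for Control (grey) and Loaded (red), with 95% Poisson intervals. All 4 genes are lower at 2 steps than in the Loaded bone region, Loaded *Spp1* is at 8.38 again at 6 to 10 steps, and Control *Dmp1* is higher beyond 10 steps (0.873) than in the bone region (0.502).

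In some spots outside the listed region *Spp1*, and in Control *Ibsp*, were as high as within it. These zones were described after their values were seen. Continuing the line of the right side up to 10 steps above its end, 22 Control spots held 25 *Ibsp* UMIs per 10000 (21.6 to 28.8) and 26.5 *Spp1* UMIs per 10000 (23.0 to 30.4), with 0.386 *Dmp1* UMIs (0.0796 to 1.13) and 0.386 *Mepe* UMIs per 10000 (3 UMIs each), of which the *Dmp1* interval includes the level of the Control bone region. The zone drawn by the same rule in Loaded, 36 spots, held 39.1 *Spp1* UMIs per 10000 (35.8 to 42.7) and 4.93 *Ibsp* UMIs per 10000 (3.8 to 6.28). It held 1 *Dmp1* and 0 *Mepe* UMIs, so that *Ibsp*, *Dmp1* and *Mepe* were below their levels in the Loaded bone region. Sides and ends are not named in the labels, so the Control and Loaded zones need not be the same place on the bone. The osteoclast list took 1.21% of the UMIs of the Control line and 0.709% of the Loaded line, more than in either bone region, and the osteoblast list 4.30% and 2.93%.

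*Dmp1* in Control was found mainly far from the osteotomy. Of its 426 UMIs outside the bone region, 365 lay more than 10 steps away, and the level there (0.873 per 10000, 0.786 to 0.967) was above that of the bone region. More than 20 steps above the region lay 471 Control spots with 283 *Dmp1* UMIs, and in the 235 of these with under 10% muscle UMIs *Dmp1* stood at 4.92 per 10000 (4.24 to 5.67), close to the 4.18 (3.58 to 4.86) of the Loaded bone region. In the same 235 spots *Ibsp* was at 3.43, *Spp1* at 8.08 and *Mepe* at 0.183 (0.0736 to 0.377) per 10000, and *Mepe* was thus below its Loaded bone level of 1.12 (0.823 to 1.50).

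Those distant Control spots also held *Sost* at 4.06 UMIs per 10000 against 0.341 in the Control bone region, *Bglap* at 14.3 against 2.26, and *Col2a1*, the collagen of cartilage, at 36.3 against 0.359. The Loaded section had no spots that far above its region and 74 spots more than 20 steps below it, with *Dmp1* at 1.07 per 10000 (0.685 to 1.59). Since the ends are not named, it is not known whether these are the same end of the femur. The distant spots of 1 section were therefore not compared with those of the other.

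To compare shares of spots at equal depth, each spot was thinned at random to 1000 UMIs. The intervals of these shares do not cover the spread between random draws. A *Spp1* UMI remained in 45.0% of Control (exact binomial interval 36.3% to 54.0%) and 67.9% of Loaded bone spots (59.2% to 75.8%), an *Ibsp* UMI in 22.9% (16% to 31.0%) and 41.2% (32.7% to 50.2%), a *Dmp1* UMI in 3.82% (1.25% to 8.68%) and 28.2% (20.7% to 36.8%), and a *Mepe* UMI in 0.763% (0.0193% to 4.18%) and 8.40% (4.27% to 14.5%). None of 131 Control spots and 15 of 146 Loaded spots were too shallow and were left out. Unthinned, the shares were 80.2% and 85.6% for *Spp1*, 48.1% and 63.7% for *Ibsp*, 19.8% and 54.1% for *Dmp1*, and 1.53% and 25.3% for *Mepe*. The *Ibsp* intervals were apart only at 1000 UMIs. Unthinned they overlapped (39.3% to 57.0% and 55.3% to 71.5%). Thinned to 500 UMIs the *Ibsp* shares were 18.3% (12.1% to 26.0%) in Control and 23.3% (16.7% to 31.0%) in Loaded.

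Spots with 10% or more muscle UMIs and more than 5 steps from the listed bone spots, where these genes should be scarce, gave the background. In Control a *Spp1* UMI remained in 16% of 639 such spots, an *Ibsp* UMI in 6.73%, a *Dmp1* UMI in 5.79% and a *Mepe* UMI in 0.313%, and in Loaded in 14.1%, 4.14%, 1.70% and 0.973% of 411 spots, at median depths before thinning of 5138 and 3353 UMIs. Leaving out spots more than 20 steps above the region gave a Control *Dmp1* background of 3.98% (2.45% to 6.07%). By this measure the interval of the Control *Dmp1* share (5 spots) and that of *Mepe* (1 spot) included the background, while *Spp1* and *Ibsp* were above it in both sections. By level, which uses all UMIs, Control *Dmp1* was higher in the bone region, at 0.502 per 10000 (0.334 to 0.726), than in these muscle spots without those far above, at 0.177 (0.140 to 0.220).

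Within a spot the genes went together in part. Of the 131 Control bone spots 16 had no SIBLING UMI, 48 had 1 of the genes, 53 had 2, 14 had 3 and none had all 4. Of the 146 Loaded spots 11 had none, 27 had 1, 39 had 2, 47 had 3 and 22 had all 4. *Ibsp* and *Spp1* were found together in 55 Control and 87 Loaded spots, and *Dmp1* and *Ibsp* in 15 and 60. In Loaded, 70.3% of the 37 *Mepe* spots held *Dmp1*, against 54.1% of all bone spots, and 93.5% of the 93 *Ibsp* spots held *Spp1*, against 85.6%. These spots were not thinned, so a deeper spot can hold more of the genes by depth alone. The shares carry no interval, and whether they exceed counting error was not tested. In Control *Mepe* was in 2 spots, too few for such a share.

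Across bone spots the closest pair was *Spp1* and *Ibsp*, with a Pearson correlation of log2 normalized counts of 0.53 over the 131 Control spots and 0.43 over the 146 Loaded spots (Spearman 0.36 and 0.45). In Control *Dmp1* had -0.01 with *Spp1* and -0.03 with *Ibsp*, but 25 of its 26 spots held a single UMI. At that depth such values cannot show that the genes are unrelated. In Loaded *Dmp1* was weakly related to both (0.20 and 0.20). With *Col1a1*, *Ibsp* had 0.54 and 0.62 and *Spp1* 0.55 and 0.33 in Control and Loaded. With *Ctsk*, *Spp1* had 0.61 and 0.40 and *Ibsp* 0.49 and 0.16. The spots of a section share a library and neighbouring tissue, and in Loaded the normalized *Spp1* values also followed the total UMIs of the spot (Spearman 0.46), so these are descriptions only.

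The ratio of *Dmp1* to *Ibsp*, which does not depend on how the spots are scaled, differed between zones. There were 9.82 *Dmp1* UMIs per 100 *Ibsp* UMIs (6.41 to 14.5) in the Control bone region and 53.3 (44.0 to 64.3) in the Loaded bone region. In the Control upper right block the value was 1.69 (0.456 to 4.38), against 20 (3.71 to 70.7) in the upper left, 60.7 (31.2 to 115) in the lower left and 80 (15.9 to 372) in the lower right block. The Loaded blocks held 42.6 (25 to 70.6), 40 (29.9 to 53.1), 61.4 (39.1 to 95.2) and 123 (76.8 to 198) in the same order.

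The Control upper right block, with 14.5 *Ibsp* and 0.246 *Dmp1* UMIs per 10000, lay below all 4 Loaded blocks, with intervals apart. The other 3 Control blocks each had an interval that overlapped that of at least 1 Loaded block. The sides and ends are not named in the labels, so blocks of the same name need not be the same place on the bone. *Spp1* per 100 *Ibsp* UMIs was 182 (158 to 212) in the Control and 366 (323 to 415) in the Loaded bone region. *Mepe* per 100 *Dmp1* UMIs was 10.7 (2.09 to 34.7) and 26.9 (19.0 to 37.5), and these intervals overlapped.

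**Figure D5:**
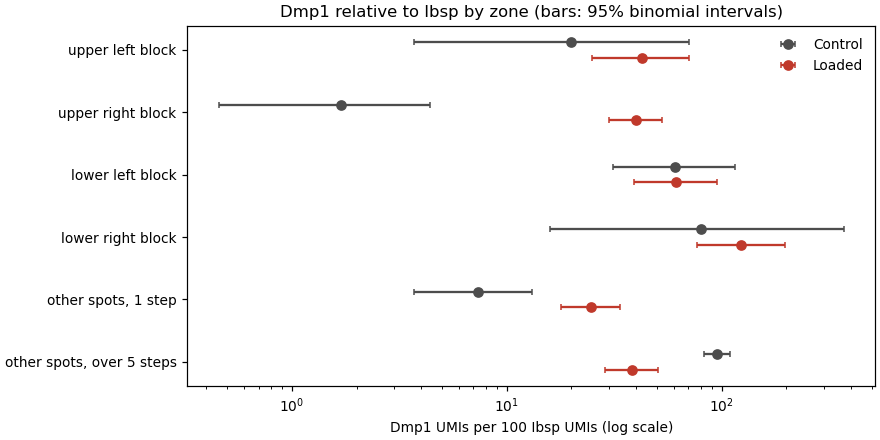
*Dmp1* UMIs per 100 *Ibsp* UMIs (log scale) in the 4 blocks of the bone region and in other spots, for Control (grey) and Loaded (red), with exact 95% binomial intervals. The Control upper right block, at 1.69, is the lowest of the 8 blocks, and its interval overlaps that of no Loaded block.

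The genes whose levels over 16 zones (4 blocks and 4 distance classes in each section) were most like those of each member were taken among 10023 genes with at least 100 UMIs. *Spp1* was closest to *Col11a1* (r = 0.95), *Slit2* (0.94), *Vav2* (0.93), *Id3* (0.93) and *Mmp9* (0.93), and *Ibsp* to *Col11a1* (0.94), *Wwp2* (0.91), *Bmp3* (0.90), *Slit2* (0.90) and *Mical3* (0.90). *Dmp1* was closest to *Col11a2* (0.94), *Bglap* (0.93), *Irx5* (0.92), *Car12* (0.90) and *Mepe* (0.89), and among the genes closest to *Mepe* were *Phex* (0.95), *Adamts14* (0.90), *Rcor2* (0.90) and *Car12* (0.90). *Phex* encodes an endopeptidase that acts on SIBLING-derived peptides and *Mmp9* an osteoclast gelatinase. Among the members, *Spp1* and *Ibsp* had r = 0.88 and *Dmp1* and *Mepe* 0.89, *Spp1* had 0.78 with *Dmp1* and 0.72 with *Mepe*, and *Ibsp* had 0.58 with *Dmp1* and 0.46 with *Mepe*. The zones of a section share a library, and *Phex* (112 UMIs) and *Mepe* (119 UMIs) are sparse.

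Genes that act with the SIBLINGs were read from lists. Of 9 receptor genes, which encode the integrin chains and CD44 that bind these proteins, 8 had enough UMIs in the bone regions, and 1 was at least 2-fold higher in Loaded and none lower, a share near the 10.6% of all genes (median log2 ratio -0.06, all genes 0.02). That gene was *Itga4*, with 16 and 9 UMIs in Loaded and Control (1.16, -0.11 to 2.52), and *Cd44* had 155 and 157 UMIs (0.31, -0.02 to 0.64).

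Of 10 processing and modifying genes 9 were measured and 2 were at least 2-fold higher in Loaded (against 10.6% of all genes), *Phex* (35 and 2 UMIs, 4.46, 2.50 to 7.56) and the metalloproteinase *Mmp3* (16 and 7 UMIs), with a list median of 0.06. *Fam20c*, the kinase that phosphorylates SIBLING proteins, had 19 UMIs in Loaded and 38 in Control (-0.67, -1.55 to 0.16), and *Acp5*, which can remove phosphate from osteopontin, had 348 and 626 (-0.52, -0.71 to -0.33).

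Among 8 transcription factors 7 were measured and 5 were at least 2-fold higher in Loaded (against 10.6% of all genes, list median 1.61), including *Runx2* (96 and 55 UMIs, 1.13), which is required for osteoblasts, *Sp7* (43 and 13, 2.05) and *Dlx5* (55 and 15, 2.20), while *Mef2c* had 54 and 110 UMIs (-0.70). Of 7 genes of mineral deposition 3 were at least 2-fold higher (against the same 10.6%, list median 0.83). These were the phosphatases *Alpl* (116 and 24 UMIs, 2.60) and *Phospho1* (198 and 54, 2.20) and the sphingomyelinase *Smpd3* (21 and 0 UMIs). The *Smpd3* log2 ratio was 3.13 with the 0 set to 3, which leaves out the counting error of the 21 UMIs. *Fgf23*, the phosphate hormone of osteocytes, had 1 UMI in Loaded and 0 in Control.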

How the data were processed

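Spatial gene expression was measured with probe-based Visium on 1 formalin-fixed section of a femur per group. The authors deposited raw UMI counts per gene and spot from Space Ranger 2.0.0 (per the file headers), with spot positions and images; the mm10 build and R 4.3.1 are named in the submitters' processing notes. Bone spots were those the study listed for each section, and the image scale factors were not used here. The study's spot-level tests treat spots as replicates and were not repeated, since each group is 1 section.

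Spots with at least 500 UMIs and 250 genes were kept, as in the study (64 Control and 5 Loaded spots were left out). For values within or between bone regions, UMI sums were divided by sums of scran 1.30.0 size factors (R 4.3.3); bone and other spots were compared per 10000 UMIs. Genes needed 10 UMIs over the zones compared. Sums carry exact Poisson, shares exact binomial (Clopper-Pearson) and log2 ratios exact conditional binomial 95% intervals, which cover counting error only. A 0 was set against 3 counts, also where genes were ranked by ratio, and a gene at or below 3 counts in both zones got no ratio. The intervals were tested only on simulated independent Poisson counts, the model they assume. That test does not cover counts clumped in single spots. Python 3.11.15, numpy 2.4.6, scipy 1.17.1, pandas 2.3.3 and matplotlib 3.10.9 were used, and edgeR 4.0.16 only for TMM factors as an alternative scale.

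The shaft was to be laid along the first principal component of the bone spots, but that line crossed the sides (tilts of 19.6 and 29.1 degrees). The direction in which the spots fall into 2 parallel lines with the least spread was used instead, chosen from positions after this was seen. Of the capture grid positions, 557 lay under tissue in both sections and 0 in both bone regions; these are positions on separate slide areas. The named genes were the 4 members, the 5 genes most like each over 16 zones by Pearson correlation of log2(UMIs per 10000 + 0.1) among genes with at least 100 UMIs, and listed genes of receptors, processing, transcription and mineral deposition. A few of these genes are not reported here. Correlations over spots used log2(normalized count + 1). Members and lists were chosen with earlier results of these data known. Alternatives changed the scale, the weight of spots, the spots included, the axis, the thinning and the count minimum.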

Additional observations from a re-analysis of the deposited data

How the results depend on the processing

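Of 217 log2 ratios under alternatives, 153 stayed within the counting error of the reported ratio, 8 of them with the other sign where the interval included 0. Of the rest, 57 moved beyond it and 7 with an interval clear of 0 changed direction. In all, 16 changed sign. The cause was not tested. The axis and top-spot alternatives were chosen after seeing the data.

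Loaded over Control, *Spp1* was 1.26 with spots of equal weight, and under 5% and 10% muscle UMIs and in the middle part *Spp1* was 0.88, 1.33 and 2.56 and *Ibsp* -0.69, 0.11 and 2.60. *Dmp1* was 3.92 and 4.47 under these muscle limits, and *Mepe* 2.13 under 5% (with a 0 set to 3 counts) and 2.62 in the middle part. *Ibsp* was 0.83 without the top spots. Leaving out each block gave 1.17 to 2.59 (*Spp1*), -0.07 to 2.49 (*Ibsp*), 2.58 to 3.65 (*Dmp1*) and 3.69 to 5.22 (*Mepe*).

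Bone over other spots, Control *Spp1* and *Ibsp* were 1.49 and 1.86 with scran over all spots, 1.80 and 2.17 without muscle genes in the totals, 2.35 and 2.90 against spots over 3 steps away, and 0.91 and 1.44 with equal weights. Control *Dmp1* was 2.27 within the span and -1.64 with equal weights. Loaded *Spp1* was 2.33, 2.36, 2.66 and 2.11 in the same 4 settings, *Ibsp* 3.43 over 3 steps, 2.24 within the span and 2.56 with equal weights, and *Dmp1* 3.97 and 3.02 over 3 steps and with equal weights.

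Middle over end parts, Control *Spp1* was -0.34 for a longer middle part and -1.9 under 10% muscle, and *Ibsp* -3.51 there. Leaving out a side gave -1.91 to 0.37 (*Spp1*) and -3.84 to 0.71 (*Ibsp*) in Control, and 0.71 to 0.87 (*Spp1*) and -0.85 to 1.40 (*Mepe*) in Loaded. Along the principal component Loaded *Spp1* was 0.19 and *Ibsp* -0.98.

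Right over left, Control *Spp1* was 1.43 with library totals and 1.48 under 10% muscle, where *Ibsp* was 0.83 and Loaded *Spp1* was 0.73. Control *Dmp1* had no UMI on 1 side under that limit, so its -5.08 is only a bound against 3 counts and not a measured lean. Leaving out a part of the length gave -0.75 to 1.63 (*Spp1*) and -1.21 to 2.90 (*Ibsp*) in Control, and 0.87 to 1.15 (*Spp1*), 0.33 to 0.76 (*Ibsp*) and 0.16 to 2.10 (*Mepe*) in Loaded.

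Thinned to 500 UMIs, 29.0% (*Spp1*), 18.3% (*Ibsp*) and 0% (*Mepe*) of Control and 53.4% (*Spp1*), 23.3% (*Ibsp*) and 14.4% (*Dmp1*) of Loaded bone spots held a UMI. Unthinned shares were 80.2%, 48.1% and 19.8% in Control and 85.6%, 63.7%, 54.1% and 25.3% (*Mepe*) in Loaded.

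With a minimum of 20 or 50 UMIs, genes at least 2-fold apart numbered 674 or 245 (Loaded over Control), 2694 or 1876 (Control bone over other spots, 1878 with scran), 365 or 116 (Control middle), 889 or 353 (Control sides, 2526 with library totals), 1244 or 756 (Loaded bone over other spots), 331 or 37 (Loaded middle) and 191 or 26 (Loaded sides).

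No paired analysis was possible because each group is 1 section. Counts of *Mepe* and of Control *Dmp1* limit every ratio that uses them.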
